A study of Mus musculus with 8 samples.

Results

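The genes described here were 8 members of the *Ms4a* family: *Ms4a7*, *Ms4a14*, *Ms4a6b*, *Ms4a6c*, *Ms4a6d*, *Ms4a4a*, *Ms4a4b* and *Ms4a4c*. They were chosen by measured values, namely as the rows named *Ms4a* that had counts in the microglia and macrophage nuclei and that stood out for a higher level in one subpopulation of disease-associated microglia (DAM) than in another. Of 32285 genes in the table, 19 were named *Ms4a*, and the other 11 had 0 counts in these nuclei. Levels across subpopulations are therefore given as a description without a test, because the subpopulations had also been defined by clustering these same counts.

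Single-nucleus RNA-seq (10x 3′ chemistry) was performed on frozen hemispheres of the brains of C57BL6/J mice aged 6 months, from which the cerebellum and olfactory bulb had been removed. There were 8 libraries, 2 for each of 4 genotypes. WT mice carried neither mutation. Cnp-/- mice lacked CNP, a protein of oligodendrocytes that myelin needs. 5xFAD mice carried mutant human transgenes that drive amyloid deposition, and Cnp-/- 5xFAD mice carried both. The loss of CNP was constitutive, and the 5xFAD transgenes are driven by the neuronal Thy1 promoter. The reporting summary of the study states that animals were pooled within each replicate for single-cell analysis, whereas its methods state pooling only for another dataset, so how many animals a library here stands for is uncertain. P values measured the spread between these libraries.

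MS4A proteins cross the membrane several times and have both ends inside the cell. The founding member, MS4A1 (CD20), marks B cells, whereas MS4A4A, MS4A6 and MS4A7 proteins are made by macrophages and related myeloid cells, where they are thought to act in receptor complexes and endosomes. Border-associated macrophages of the meninges and vessels express *Ms4a7* strongly, and resident microglia normally do not. In the human gene cluster, common variation has been linked to the amount of soluble TREM2, the shed form of a microglial lipid receptor that acts through the adaptor TYROBP.

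The 8 genes lay together on mouse chromosome 19, from 11301249 to 11604849 (GRCm38, GENCODE), a stretch of 303601 bases in which only *Ms4a4d*, with 0 counts in these nuclei, interrupted the series. *Ms4a14*, *Ms4a7* and *Ms4a6d* are on the minus strand and the other 5 on the plus strand. Coding sequences were close for some pairs within the *Ms4a6* and *Ms4a4* groups. *Ms4a4b* and *Ms4a4c* were 91.7% identical with 135 shared stretches of 50 bases, so counts of this pair are reported as uncertain. The 3′ ends, where reads of this chemistry mainly fall, were not compared. *Ms4a6b* was 80.1% identical to *Ms4a6d* (40 shared stretches) and 74.7% identical to *Ms4a6c* (117 shared stretches), and counts of these pairs carry the same uncertainty. *Ms4a6c* and *Ms4a6d* were 67.2% identical with 0 shared stretches. *Ms4a4a* was 59.6% identical to *Ms4a4b* and 59.9% identical to *Ms4a4c*. *Ms4a7*, *Ms4a14* and *Ms4a4a* shared 0 such stretches with any other member.

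RefSeq promoters were found for 7 of the 8 members, and 4 are shown because the levels below separate these genes. *Ms4a7* and *Ms4a4a* had 0 counts in homeostatic microglia, whereas *Ms4a6b* and *Ms4a6c* were detected there. Each line gives the 250 bases before the RefSeq start of the gene (GRCm38.p6, 5′ to 3′ on the strand of the gene), and *Ms4a7* is shown for the first of its starts. The positions are chr19:11336147-11336396 (minus strand) for *Ms4a7*, chr19:11375238-11375487 (plus) for *Ms4a4a*, chr19:11518309-11518558 (plus) for *Ms4a6b* and chr19:11469118-11469367 (plus) for *Ms4a6c*. Capitals in *Ms4a4a* mark TGCTGA or its reverse complement TCAGCA, the half-site of MAF factors, and *Ms4a7* held no letters to mark. Capitals in *Ms4a6b* and *Ms4a6c* mark a run of 48 bases that both share.
Ms4a7: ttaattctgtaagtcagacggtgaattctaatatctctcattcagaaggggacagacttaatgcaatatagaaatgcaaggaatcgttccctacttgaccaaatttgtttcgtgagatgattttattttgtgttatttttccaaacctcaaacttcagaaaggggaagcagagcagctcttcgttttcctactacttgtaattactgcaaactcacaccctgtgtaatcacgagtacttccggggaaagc
Ms4a4a: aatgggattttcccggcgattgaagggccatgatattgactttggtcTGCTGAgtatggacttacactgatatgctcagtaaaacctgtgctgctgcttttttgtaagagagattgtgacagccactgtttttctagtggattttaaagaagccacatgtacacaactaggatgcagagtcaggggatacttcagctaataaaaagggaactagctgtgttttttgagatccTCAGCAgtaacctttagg
Ms4a6b: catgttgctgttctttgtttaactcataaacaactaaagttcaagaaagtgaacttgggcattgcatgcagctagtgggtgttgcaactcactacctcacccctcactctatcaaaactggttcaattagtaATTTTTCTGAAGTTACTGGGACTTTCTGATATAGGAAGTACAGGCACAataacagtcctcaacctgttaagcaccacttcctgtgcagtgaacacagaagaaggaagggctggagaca
Ms4a6c: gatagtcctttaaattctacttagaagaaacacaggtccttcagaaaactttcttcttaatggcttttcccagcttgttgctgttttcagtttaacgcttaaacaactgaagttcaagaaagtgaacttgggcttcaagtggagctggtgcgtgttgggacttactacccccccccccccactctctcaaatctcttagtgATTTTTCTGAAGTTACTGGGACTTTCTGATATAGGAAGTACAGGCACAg

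The promoters were searched on both strands for GAGGAA (the core of PU.1 sites), TGCTGA and the E-box CACGTG, and no matches overlapped. *Ms4a4a* held TGCTGA at 2 places, which 16.1% of 32851 promoters of this length hold at least once. *Ms4a14*, *Ms4a4b* and *Ms4a4c* each held GAGGAA at 1 place, as did 23.3% of all promoters. *Ms4a7*, *Ms4a6b* and *Ms4a6c* held none of the 3 in this window, and CACGTG, found in 6.02% of all promoters, was in none of these promoters. The shared run began at base 133 of the window in *Ms4a6b* and at base 202 in *Ms4a6c*. Over the whole window the pair was 45.8% identical, within the 41.9 to 50.2% of the other pairs of different members except *Ms4a4b* and *Ms4a4c*, which were 68.8% identical with a longest shared run of 20 bases.

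Library depth ranged from 6801 to 8824 nuclei and from 68905044 to 82399061 counts of unique molecular identifiers (UMIs). Microglia and macrophages made up 2291 of 61949 nuclei, 70 to 492 per library. None of their barcodes occurred among the microglia and macrophages of another library. Over all nuclei, 909 of 61949 had a barcode that also occurred in another library. *Cnp* itself stood at 219 to 321 CPM (counts scaled to a library or profile total of 1e6 UMIs) in mature oligodendrocytes of the 4 libraries with the gene and at 23.1 to 32.8 CPM in the 4 libraries without it. The authors' 5 subpopulations held 205 macrophages, 982 homeostatic microglia, 270 MyTE nuclei (microglia rich in myelin transcripts), 586 amyloid-DAM and 248 myelin-DAM. Border macrophage markers (14 genes, including *Mrc1* and *F13a1*) summed to 16045 CPM in macrophages and to between 576 and 964 CPM elsewhere. The 10 myelin and oligodendrocyte markers summed to 12677 CPM in MyTE nuclei and to between 253 and 519 CPM elsewhere. Homeostatic markers (10 genes) summed to 8389 CPM in homeostatic microglia and 2554 to 5314 CPM elsewhere. DAM markers (15 genes measured) summed to 3924 CPM in myelin-DAM, 3785 CPM in macrophages, 2989 CPM in amyloid-DAM, and 1522 CPM or less in the other 2. In macrophages, *Apoe* and *Ctsb* alone made up 3191 CPM of the DAM list, and its other 13 genes summed to 594 CPM, where myelin-DAM had 2335 CPM and amyloid-DAM 1948 CPM. The names thus did not go against their markers. Markers of other cells were low throughout, with neuron genes at 5.68 to 10.4 CPM, monocyte and neutrophil genes at 2.29 to 126 CPM, lymphocyte genes at 16.2 to 99.3 CPM and astrocyte genes at 82.4 to 386 CPM. WT libraries gave only 1 myelin-DAM and 1 amyloid-DAM nucleus in all. Levels below are per library and subpopulation, and those of fewer than 5 nuclei were left out.

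Macrophages held most of the *Ms4a* signal. Their summed level of the 8 genes was 1818 ± 573 CPM (SD, n = 8 libraries). It stood at 1732 and 3032 CPM in WT, 1364 and 2212 CPM in Cnp-/-, 1315 and 1373 CPM in 5xFAD, and 1769 and 1748 CPM in Cnp-/- 5xFAD. The lowest macrophage library lay above every library of every other subpopulation. By comparison, the sum was 308 ± 171 CPM (n = 6) in myelin-DAM, 113 ± 96.5 CPM (n = 6) in amyloid-DAM, 102 ± 52.8 CPM (n = 7) in MyTE nuclei and 102 ± 27.4 CPM (n = 8) in homeostatic microglia. The gap between MyTE nuclei and homeostatic microglia was thus within their spread between libraries. Some DAM profiles were small, and with at least 20 nuclei per profile the myelin-DAM sum was 403 ± 54.6 CPM (n = 4), whereas that of amyloid-DAM was 58.4 ± 11.1 CPM (n = 4). These 4 amyloid-DAM profiles all carried the 5xFAD transgenes, and the homeostatic microglia of the same libraries stood at 68.0 to 89.1 CPM. Within these libraries amyloid-DAM was 0.601-fold, 0.666-fold, 1.10-fold and 0.629-fold the homeostatic level. Pooled over them the ratio was 0.733 (0.494 to 1.09, counting error only), an interval that includes 1. In each of the 8 libraries taken alone, macrophages were 9.34-fold to 26.0-fold above the homeostatic microglia of the same library.

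**Figure D1:**
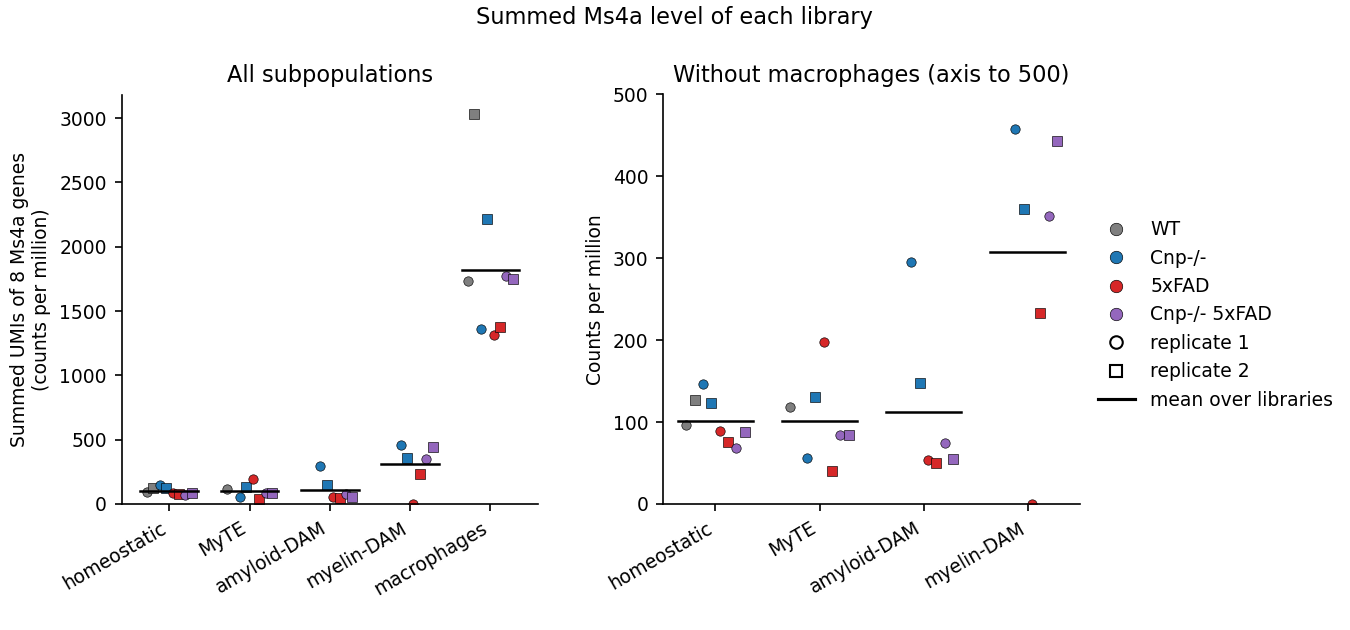
Summed level of the 8 *Ms4a* genes (CPM, linear axis from 0) in each library, for all 5 subpopulations on the left and without macrophages on the right. Points are libraries coloured by genotype and lines are means. The 8 macrophage libraries, from 1315 to 3032 CPM, sit above all other points.

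Among macrophages, *Ms4a7* was the member with the most UMIs (179 of 701). Its level was 495 and 423 CPM in WT, 436 and 772 CPM in Cnp-/-, 321 and 320 CPM in 5xFAD, and 410 and 682 CPM in Cnp-/- 5xFAD. Both 5xFAD libraries were the lowest of the 8, and the other 3 genotypes overlapped. Pooled over libraries, *Ms4a7* was at least 178-fold higher in macrophages than in homeostatic microglia, a bound against 3 UMIs because homeostatic microglia had 0. Against myelin-DAM the pooled ratio was 3.75 (95% interval 2.62 to 5.49, exact, counting error only). *Ms4a7* UMIs were found in 108 of 205 macrophages. Each of these 108 nuclei also held a UMI of *Mrc1*, *Cd163*, *F13a1*, *Cbr2*, *Lyve1* or *Pf4*, which mark border macrophages. Such a marker was also present in 191 of all 205 macrophages (93.2%) and in 20 of the 27 without any *Ms4a* UMI. The 108 nuclei were deeper as well, with a median of 2061.5 UMIs against 1783 over all macrophages. *Ms4a14*, the neighbour of *Ms4a7*, was present at 104 ± 91.1 CPM, with 0 in 2 of the 8 libraries.

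*Ms4a4a*, which encodes a surface protein of macrophages, stood at 315 ± 166 CPM (SD, n = 8), with 353 and 646 CPM in WT, 109 and 412 CPM in Cnp-/-, 306 and 206 CPM in 5xFAD, and 186 and 298 CPM in Cnp-/- 5xFAD. Both WT libraries lay above every library with the 5xFAD transgenes, whereas Cnp-/- overlapped each of the other genotypes. Both transgenic genotypes also overlapped each other. Most *Ms4a4a* UMIs came from macrophages. These held 130 UMIs, against 13 in MyTE nuclei, 5 in myelin-DAM, 1 in amyloid-DAM and 0 in homeostatic microglia. The lowest macrophage library lay above the highest library of any other subpopulation, 43.2 CPM. *Ms4a4b* (11 UMIs) and *Ms4a4c* (7 UMIs) were close to the limit of detection even in macrophages, and no order could be read from them.

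The *Ms4a6* genes, transmembrane proteins of myeloid cells, were all present in macrophages. *Ms4a6b* stood at 394 ± 196 CPM (SD, n = 8), *Ms4a6c* at 282 ± 224 CPM and *Ms4a6d* at 198 ± 115 CPM. *Ms4a6c* ranged most widely, with 212 and 795 CPM in WT, 164 and 103 CPM in Cnp-/-, 127 and 206 CPM in 5xFAD, and 372 and 277 CPM in Cnp-/- 5xFAD. The highest value came from WT replicate 2, and both Cnp-/- 5xFAD libraries lay above both Cnp-/- and both 5xFAD libraries. *Ms4a6d* stood at 318 and 348 CPM in WT, 0 and 206 CPM in Cnp-/-, 194 and 91.5 CPM in 5xFAD, and 168 and 256 CPM in Cnp-/- 5xFAD. The 0 came from a library with 10 macrophages, and the WT libraries were the highest pair.

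**Figure D2:**
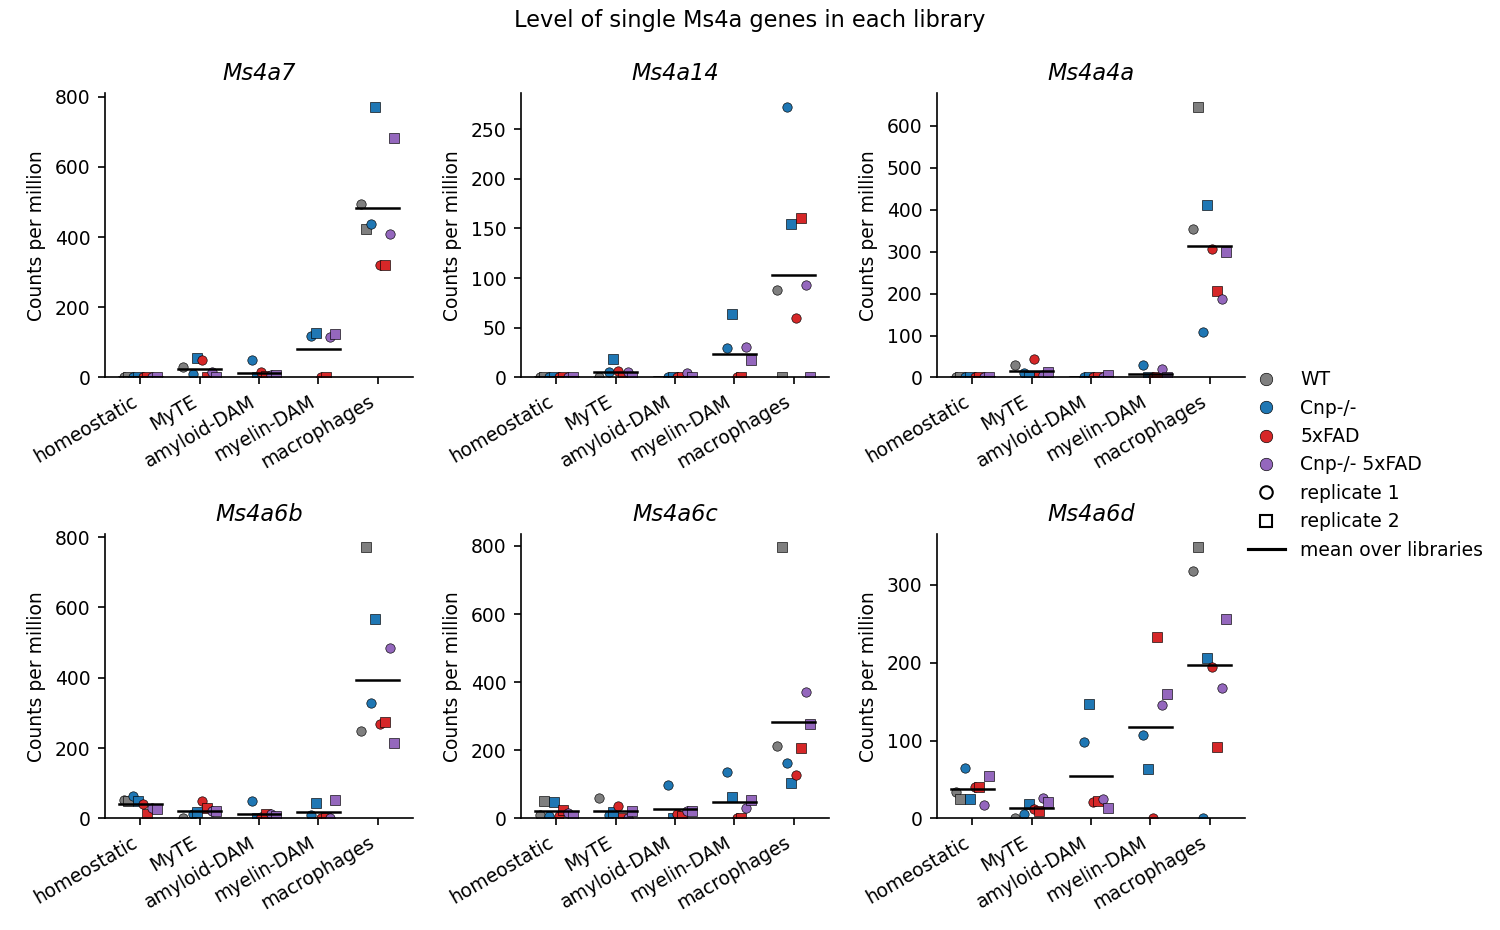
Level (CPM, linear axis from 0) of the 6 members with most UMIs, in each library and subpopulation, with 1 panel per gene, points for libraries coloured by genotype and lines for means. *Ms4a7* and *Ms4a4a* are at 0 in all 8 homeostatic libraries, and *Ms4a6b* and *Ms4a6d* are above 0 in all 8.

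Homeostatic microglia, the resting resident state, showed a narrow *Ms4a* repertoire. *Ms4a6b*, *Ms4a6c* and *Ms4a6d* together made up 116 of 118 *Ms4a* UMIs, or 98.3% (exact 95% interval 94.0 to 99.8%), against 48.6% (44.9 to 52.4%) in macrophages. *Ms4a7*, *Ms4a14*, *Ms4a4a* and *Ms4a4b* had 0 UMIs among 1233347, which allows up to 2.43 CPM, and 0 of 982 nuclei, which allows up to 0.305% of nuclei with a UMI. *Ms4a6b* stood at 40.7 ± 17.3 CPM (n = 8), *Ms4a6d* at 37.6 ± 16.0 CPM and *Ms4a6c* at 21.6 ± 18.4 CPM. All 3 were thus detected at low levels. *Ms4a6b* was 9.09-fold (6.52 to 12.9) higher in macrophages than in homeostatic microglia and *Ms4a6d* was 5.53-fold (3.84 to 8.06) higher, far below the bound for *Ms4a7*.

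Within homeostatic microglia, libraries with and without the 5xFAD transgenes did not overlap for *Ms4a6b*. Its level was 53.3 and 50.6 CPM in WT and 64.9 and 49.5 CPM in Cnp-/-, but 40.5 and 11.6 CPM in 5xFAD and 28.3 and 27.0 CPM in Cnp-/- 5xFAD. All 4 libraries with the transgenes lay below all 4 without, on 2 to 11 UMIs per library. The share of all genes that separate in this way was not counted. *Ms4a6d* and *Ms4a6c* overlapped between these groups. The summed level, of which *Ms4a6b* is a part, was 68.0 to 89.1 CPM with the transgenes against 96.9 to 146 CPM without. None of the 8 genes passed the filter on low counts in homeostatic microglia, so they entered no test of the filtered table. In the table without that filter, edgeR gave *Ms4a6b* a log2 fold change of -0.94 (SE 0.746, adjusted P = 1.00) for 5xFAD and 0.08 (SE 0.751, adjusted P = 1.00) for Cnp loss. No member was called, beside 0.371% of 16178 genes for 5xFAD and 0.167% for Cnp loss.

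MyTE nuclei were close to homeostatic microglia in summed level (pooled ratio 1.04, 0.775 to 1.38), but held another mixture of members. *Ms4a7* (17 UMIs in 12 nuclei), *Ms4a4a* (13 UMIs in 7 nuclei) and *Ms4a14* (4 UMIs in 4 nuclei), all at 0 in homeostatic microglia, were detected. Between MyTE libraries, *Ms4a4a* ranged from 0 to 43.2 CPM. The *Ms4a6* genes made up 57.0% (exact 95% interval 45.8 to 67.6%) of MyTE *Ms4a* UMIs, and *Ms4a4a* made up 15.1% (8.30 to 24.5%), close to its 18.5% (15.7 to 21.6%) in macrophages. Per library, *Ms4a7* was 29.6 CPM in the WT library, 11.3 and 55.8 CPM in Cnp-/-, 49.4 and 0 CPM in 5xFAD, and 15.9 and 0 CPM in Cnp-/- 5xFAD. It thus varied from 0 upward in both amyloid genotypes.

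Macrophage markers moved with the *Ms4a* UMIs of MyTE nuclei. At least 1 UMI of the 6 border macrophage markers named above was present in 14 of 45 MyTE nuclei with an *Ms4a* UMI (31.1%, exact 95% interval 18.2 to 46.6%) and in 6 of 225 without one (2.67%, 0.985 to 5.71%). Nuclei with an *Ms4a* UMI were also deeper, with a median of 3565 UMIs against 2692. Of the 12 MyTE nuclei with *Ms4a7*, 8 held such a marker. For every 100 *Ms4a7* UMIs, MyTE nuclei held 488 UMIs of *Mrc1* (287 to 878), beside 736 (629 to 865) in macrophages. With the 20 marker-bearing nuclei left out, the summed MyTE level went from 102 to 46.2 ± 36.9 CPM (n = 7), and the *Ms4a7* nuclei from 12 to 4. The part of macrophage RNA in the MyTE values was not tested further.

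Myelin-DAM, found mainly in mice without CNP, held *Ms4a7*, *Ms4a6d* and *Ms4a6c* but few UMIs of *Ms4a6b* and *Ms4a4a*, which macrophages also expressed. *Ms4a7* stood at 117 and 127 CPM in Cnp-/- and 114 and 124 CPM in Cnp-/- 5xFAD, and at 0 in both 5xFAD libraries, which had 5 and 7 myelin-DAM nuclei. The 4 libraries lacking CNP thus lay close together. *Ms4a6d* was the most abundant member by UMIs (40 of 128) and stood at 107 and 63.6 CPM in Cnp-/-, 0 and 233 CPM in 5xFAD, and 145 and 159 CPM in Cnp-/- 5xFAD. *Ms4a6c* reached 136 and 63.6 CPM in Cnp-/- and 31.1 and 53.1 CPM in Cnp-/- 5xFAD. *Ms4a6b* (6 UMIs) and *Ms4a4a* (5 UMIs) were scarce. *Ms4a14* had 10 UMIs, at 17.7 to 63.6 CPM in the 4 libraries lacking CNP. Its pooled ratio of macrophages to myelin-DAM was 2.56 (1.23 to 5.81, counting error only). It made up 7.81% (3.81 to 13.9%) of *Ms4a* UMIs in myelin-DAM, beside 4.71% (3.26 to 6.55%) in macrophages.

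The *Ms4a6* genes differed in their ratios to homeostatic microglia. Against homeostatic microglia, the pooled ratio in myelin-DAM was 3.28 (2.10 to 5.12) for *Ms4a6d* and 4.41 (2.35 to 8.33) for *Ms4a6c*, but 0.482 (0.169 to 1.13) for *Ms4a6b*. Cnp-/- replicate 1 gave 14 of the 24 *Ms4a6c* UMIs, and without it that ratio was 2.56. Without Cnp-/- 5xFAD replicate 2, the *Ms4a6b* ratio was 0.281, on 3 UMIs. In amyloid-DAM, the ratio over the 4 libraries with the 5xFAD transgenes was 0.293 (0.105 to 0.716) for *Ms4a6b*, 0.566 (0.295 to 1.06) for *Ms4a6d* and 1.14 (0.464 to 2.92) for *Ms4a6c*. The *Ms4a6b* ratio rested on 7 amyloid-DAM UMIs, at 3.57 to 12.5 CPM per library. *Ms4a6b* made up 40.7% (31.7 to 50.1%) of *Ms4a* UMIs in homeostatic microglia, 20.8% (17.9 to 24.0%) in macrophages and 4.69% (1.74 to 9.92%) in myelin-DAM. *Ms4a4a* made up 18.5% in macrophages and 3.91% (1.28 to 8.88%) in myelin-DAM. All these intervals cover counting error only.

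**Figure D3:**
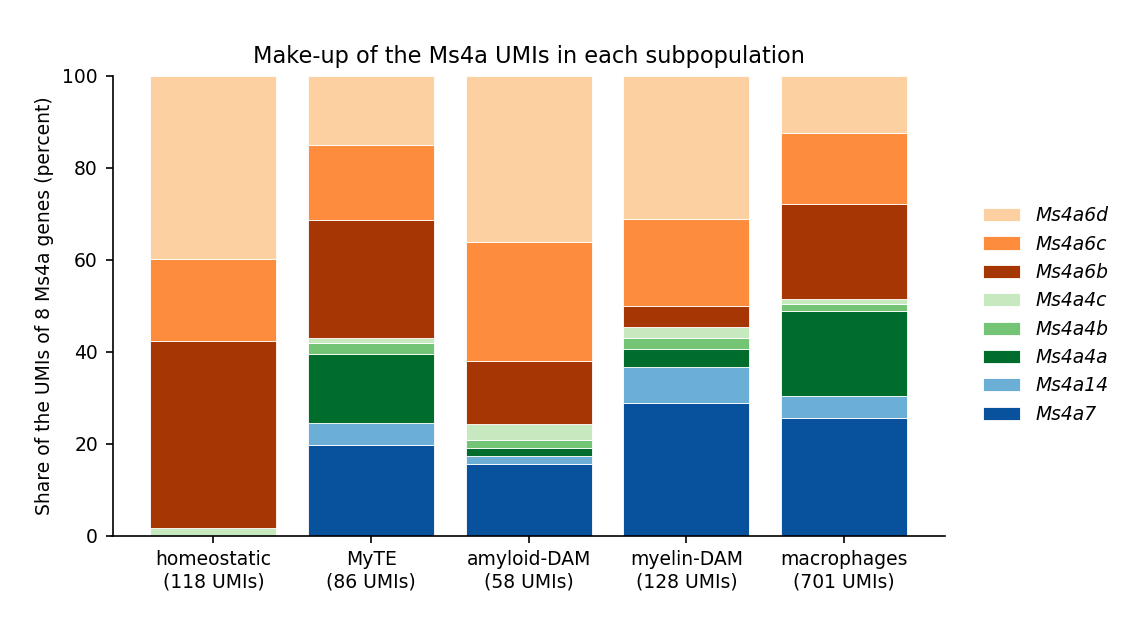
Share of each member among all *Ms4a* UMIs (percent) in each subpopulation, with 1 stacked bar per subpopulation. *Ms4a6b* takes up 40.7% of the homeostatic bar and 4.69% of the myelin-DAM bar, and *Ms4a7* is absent from the homeostatic bar.

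Macrophage markers accompanied the *Ms4a* UMIs of myelin-DAM in part. At least 1 of the 6 markers was present in 4 of 88 myelin-DAM nuclei with an *Ms4a* UMI (4.55%, 1.25 to 11.2%) and in 4 of 160 without (2.50%, 0.685 to 6.28%). Of the 32 myelin-DAM nuclei with *Ms4a7*, 3 held one (9.38%, 1.98 to 25.0%). *Cd163* (scavenger receptor), *Cbr2*, *Lyve1* and *Pf4* had 0 UMIs in myelin-DAM. For every 100 *Ms4a7* UMIs there were 21.6 UMIs of *Mrc1* (8.70 to 47.2) and 8.11 of *F13a1* (1.60 to 25.6), beside 736 and 918 in macrophages. Other genes of the 14-gene border list were present in myelin-DAM and went both ways. *Maf* and *Stab1* were lower there (322 and 141 CPM) than in homeostatic microglia (565 and 328 CPM). Both were detected less often in myelin-DAM nuclei with an *Ms4a* UMI than in those without. *Stab1* was in 10 of 88 (11.4%) against 25 of 160 (15.6%), and *Maf* in 23 (26.1%) against 50 (31.2%). Any of the 14 genes was in 56 of 88 (63.6%) against 91 of 160 (56.9%). *Colec12*, a scavenger receptor, had 114 UMIs in myelin-DAM and a level there of 357 CPM, between the 7.30 CPM of homeostatic microglia and the 821 CPM of macrophages. It was detected in 27 of 88 myelin-DAM nuclei with an *Ms4a* UMI (30.7%) and in 26 of 160 without one (16.2%), and in 6 of 45 and 18 of 225 MyTE nuclei. *Dab2*, an endocytic adaptor, was detected in 11 of 88 (12.5%) and 7 of 160 (4.38%) myelin-DAM nuclei, and in 16 of 45 (35.6%) and 11 of 225 (4.89%) MyTE nuclei. *Siglec1* was low but higher in myelin-DAM (25.0 CPM) than in homeostatic microglia (0.811 CPM). *Ms4a*-bearing nuclei were somewhat deeper (median 1314.5 against 1115.5 UMIs in myelin-DAM), and the part of depth or of these border genes in the *Ms4a* levels was not tested. Without the 8 nuclei with 1 of the 6 markers, the summed level of myelin-DAM was 307 CPM, against 308 CPM with them. Of the endothelial and mural list, *Flt1*, a VEGF receptor, reached 435 CPM in myelin-DAM, with 45.4 to 197 CPM elsewhere. The other 4 genes of that list summed to 28.2 CPM there, inside the 25.2 to 63.0 CPM of the other subpopulations.

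Amyloid-DAM had the lowest *Ms4a* content by share of nuclei. The 5xFAD libraries stood at 53.5 and 50.2 CPM and the Cnp-/- 5xFAD libraries at 74.7 and 55.3 CPM for the sum of the 8 genes. The Cnp-/- libraries read 295 and 147 CPM, but on 14 and 5 nuclei. The 4 transgenic libraries, with 112 to 184 amyloid-DAM nuclei each, thus lay close together, and the Cnp-/- values rest on few nuclei. *Ms4a7* had 9 UMIs in 6 of 586 nuclei, and 2 of these 6 nuclei held a macrophage marker. *Ms4a6d* (21 UMIs) and *Ms4a6c* (15 UMIs) made up most of the 58 UMIs.

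The share of nuclei with any *Ms4a* UMI depends on depth, and the median nucleus held 2761.5 UMIs among MyTE nuclei but 1159.5 UMIs among homeostatic microglia. Unthinned, the share was 86.8% (81.4 to 91.1%) in macrophages, 35.5% (29.5 to 41.8%) in myelin-DAM, 16.7% (12.4 to 21.7%) in MyTE nuclei, 10.6% (8.74 to 12.7%) in homeostatic microglia and 7.68% (5.66 to 10.1%) in amyloid-DAM. After thinning to 500 UMIs per nucleus, with 0 nuclei left out, it was 53.9%, 17.0%, 3.92%, 4.81% and 2.66% in the same order. MyTE nuclei thus no longer stood above homeostatic microglia, and the order of the other 3 held. The thinned shares carry no intervals, so no order between MyTE nuclei and homeostatic microglia was read from them. Neurons, which should lack these genes, had a UMI in 2.15% (2.02 to 2.29%) of nuclei at a median depth of 9105 UMIs, and in 0.0880% after thinning to 500. Every subpopulation lay above that background. By summed level, neurons stood at 2.27 ± 0.481 CPM (n = 8), mature oligodendrocytes at 2.96 ± 1.87 CPM and newly formed oligodendrocytes (NFOL) at 11.8 ± 8.01 CPM.

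Several members were often detected in the same macrophage, and 135 of 178 *Ms4a*-bearing macrophages held UMIs of at least 2 members. In myelin-DAM this was so for 21 of 88 nuclei, in MyTE nuclei for 12 of 45, in homeostatic microglia for 7 of 104 and in amyloid-DAM for 4 of 45. In macrophages, *Ms4a7* and *Ms4a6b* were both detected in 60 nuclei, where the product of their shares gives 51.1, whereas *Ms4a14* and *Ms4a6c* were both detected in 5, where it gives 9.48. *Ms4a7* and *Ms4a6d*, the leading members of myelin-DAM, occurred together in 6 nuclei, of 32 with *Ms4a7* and 36 with *Ms4a6d*, beside a product of 4.65. *Ms4a7* and its neighbour *Ms4a14* occurred together in 5 of the 10 nuclei with *Ms4a14*, beside a product of 1.29, and *Ms4a14* and *Ms4a6d* in 0 beside 1.45. Deeper nuclei raise joint detection, and *Ms4a*-bearing macrophages had a median of 1887.5 UMIs against 1076 in the others. Counts this sparse describe detection and do not show that a nucleus lacked the other gene.

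Genotype was then compared within subpopulations, on UMIs summed per library, with edgeR's quasi-likelihood test (two-sided, Benjamini-Hochberg adjustment over all genes tested). Cnp loss denotes the mean of the 2 genotypes lacking CNP against the mean of the 2 with it, and 5xFAD the mean of the 2 transgenic genotypes against the other 2. In macrophages, 5 of the 8 members passed the filter (*Ms4a7*, *Ms4a4a*, *Ms4a6b*, *Ms4a6c* and *Ms4a6d*), and none was called for Cnp loss, beside 0% of all 1513 genes tested (61 at an unadjusted P under 0.05, 0 called by DESeq2). DESeq2 called no member in any comparison. None was called for 5xFAD either, beside 0.132% of all genes. *Ms4a7* differed by 0.57 on the log2 scale with Cnp loss (SE 0.285, 95% interval -0.03 to 1.16, adjusted P = 0.990) and by -0.28 with 5xFAD (SE 0.284, -0.87 to 0.32, adjusted P = 0.958). *Ms4a4a* differed by -0.54 (SE 0.378, -1.33 to 0.26, adjusted P = 0.990) with Cnp loss. The median of the 5 members was -0.39 for Cnp loss and -0.28 for 5xFAD, and over all genes tested it was 0.0053 and 0.007.

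*Ms4a6c* and *Ms4a6d* in macrophages had the largest estimates for the interaction, the effect of Cnp loss with 5xFAD minus that without. For *Ms4a6c* the estimate was 2.95 (log2, SE 0.943, 95% interval 0.97 to 4.93, unadjusted P = 0.00564 by edgeR, adjusted P = 0.997), and for *Ms4a6d* it was 2.05 (SE 1.04, -0.13 to 4.22, adjusted P = 0.997). Neither was called, beside 0% of all genes tested (50 at an unadjusted P under 0.05, 0 called by DESeq2). Without WT replicate 1, *Ms4a6c* passed the threshold (3.82, SE 0.837, adjusted P = 0.00206), beside 0.406% of 1972 genes, in a fit with WT replicate 2, the library at 795 CPM, as the sole WT library.

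In all microglia without macrophages, where the shares of DAM and MyTE nuclei also changed with genotype, 4 members passed the filter. *Ms4a7* stood at 8.19 and 0 CPM in WT, 35.4 and 47.8 CPM in Cnp-/-, 17.3 and 2.18 CPM in 5xFAD, and 22.8 and 16.2 CPM in Cnp-/- 5xFAD. The groups with and without CNP overlapped at 1 library. Its log2 fold change with Cnp loss was 1.88 (SE 0.821, 0.06 to 3.71, unadjusted P = 0.0444, adjusted P = 0.359 by edgeR). It was 4.05 without WT replicate 1, 2.92 without 5xFAD replicate 1 and 2.93 with MyTE nuclei left out, and was called in none of these. With both DAM subpopulations left out, *Ms4a7* no longer passed the filter, and a change in the mix of nuclei cannot be told apart from a change in level per nucleus in this pool. *Ms4a6d* was 37.1 to 51.9 CPM in the 4 libraries lacking CNP and 22.7 to 32.8 CPM in the other 4, without overlap, and its log2 fold change was 0.64 (SE 0.389, adjusted P = 0.563). None of the 4 was called for Cnp loss, beside 1.59% of 8185 genes (1078 at an unadjusted P under 0.05 by edgeR). How many genes separate the 4 libraries lacking CNP from the other 4 was not counted. The border gene *Colec12* rose with Cnp loss in the same pool by a log2 fold change of 2.73 (SE 0.393, adjusted P = 0.0118 by edgeR), and its part in the *Ms4a7* values was not tested. Of the 14 border genes, 6 were tested in this pool. Only *Colec12* was called, and the median of the 6 was 0.504. MyTE nuclei made up 12.4 to 22.5% of this pool in the 4 libraries lacking CNP and 5.88 to 10.8% in the other 4. Of 10 myelin and oligodendrocyte markers, 2 rose with Cnp loss, *Mog* by 1.23 (SE 0.193, adjusted P = 0.0164 by edgeR) and *St18* by 1.03 (SE 0.143, adjusted P = 0.0118), and the median of the 10 was 0.85. With MyTE nuclei left out, *Ms4a6d* was at 0.79 (SE 0.429).

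With 5xFAD, the other pair of *Ms4a6* genes had the lower estimates in all microglia. *Ms4a6c* was 10.9 to 20.3 CPM in the 4 transgenic libraries and 20.5 to 45.3 CPM in the other 4, with a log2 fold change of -1.17 (SE 0.526, -2.34 to 0.0045, adjusted P = 0.492). *Ms4a6b* was 15.2 to 27.3 CPM against 28.3 to 56.6 CPM, with -0.95 (SE 0.462, -1.98 to 0.08, adjusted P = 0.536). Both sets of libraries were separate but by small margins. How many of all genes separate in this way was not counted. For 5xFAD, 833 of 8185 genes had an unadjusted P under 0.05 by edgeR. None of the 4 members was called for 5xFAD, beside 0.391% of all genes, or for the interaction, beside 0.0489%.

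Within the DAM subpopulations, which shared 1 fit of 8 profiles, *Ms4a7* and *Ms4a6d* passed the filter. They did so through myelin-DAM alone, where 4 and 3 of 4 profiles reached the 80.8 CPM needed, against 0 of 4 amyloid-DAM profiles for both. Between Cnp-/- 5xFAD and Cnp-/- myelin-DAM, *Ms4a7* differed by -0.03 on the log2 scale (SE 0.783, -1.74 to 1.68, adjusted P = 0.999 by edgeR), a wide interval that does not show equal levels. *Ms4a6d* differed by 0.76 (SE 0.715, -0.80 to 2.32, adjusted P = 0.932). Neither was called, beside 0% of 3919 genes (242 at an unadjusted P under 0.05, 3 called by DESeq2). In amyloid-DAM, *Ms4a7* had 4 and 1 UMIs in 5xFAD and 2 and 1 in Cnp-/- 5xFAD, too few for a comparison of genotypes. *Ms4a6d* had 6 and 4 UMIs in 5xFAD and 6 and 2 in Cnp-/- 5xFAD. In MyTE nuclei no member passed the filter, and without it none was called, beside 0.172% of 15687 genes for Cnp loss and 0.0446% for 5xFAD.

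**Figure D4:**
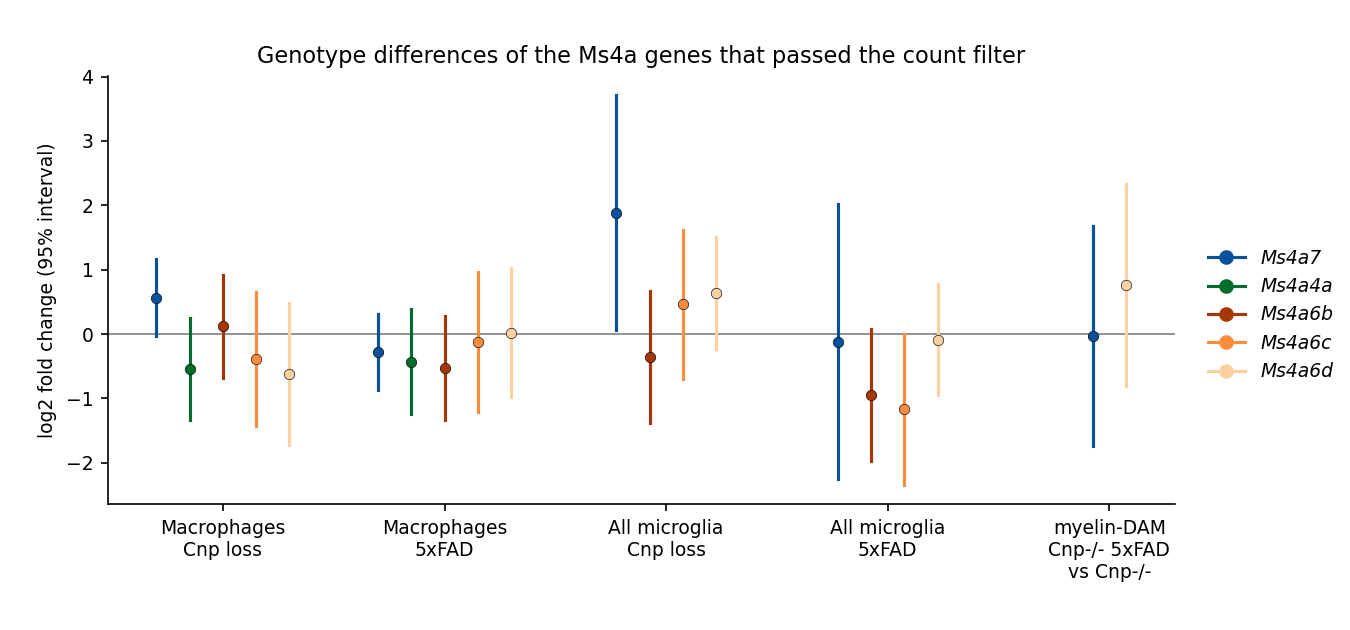
Log2 fold changes of the members that passed the filter, with their 95% intervals (edgeR), for Cnp loss, 5xFAD and the comparison within myelin-DAM, with a line at 0. All intervals include 0 except that of *Ms4a7* for Cnp loss in all microglia (0.06 to 3.71), whose adjusted P was 0.359.

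A list of 16 genes tied to MS4A proteins and TREM2 signalling was followed beside the family. Of these, 15 could be tested in all microglia and 1 rose with Cnp loss: *Apoe*, the lipid carrier, by 1.52 on the log2 scale (SE 0.221, adjusted P = 0.0118 by edgeR), beside 1.59% of all genes called in either direction. *Apoe* was past the threshold without DAM but not without WT replicate 1 (1.44, adjusted P = 0.0874 by edgeR) or with MyTE nuclei left out (1.73, adjusted P = 0.0907). None fell, and none of the 15 was called for 5xFAD, beside 0.391% of all genes. The median of the list was -0.14 for Cnp loss, beside 0.024 over all genes. In macrophages 11 could be tested, and none was called for either contrast, beside 0% of all genes for Cnp loss and 0.132% for 5xFAD. *Trem2*, the receptor itself, stood at 99.3 CPM in macrophages, 225 CPM in myelin-DAM, 259 CPM in amyloid-DAM, 86.4 CPM in MyTE nuclei and 205 CPM in homeostatic microglia (pooled UMIs). *Trem2* therefore followed another order than the *Ms4a* sum, with macrophages and MyTE nuclei low and homeostatic microglia close to myelin-DAM. *Apoe* followed the order of the *Ms4a* sum at its top, with 2457 CPM in macrophages and 829 CPM in myelin-DAM, above 431 CPM in amyloid-DAM.

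The genes whose levels resembled the summed *Ms4a* level most were sought over 27 library profiles of at least 20 nuclei, by Pearson's r of log2(CPM + 10). The profiles share libraries and differ in depth, so r is a description. The 10 closest of 8173 genes, members apart, were *Dse* (0.946), *Itsn1* (0.933), *Cyp27a1* (0.919), *P2rx7* (0.913), *Arhgap15* (0.910), *Rbpj* (0.903), *Stap1* (0.894), *Arhgap19* (0.893), *Lyz2* (0.889) and *Cp* (0.888). *Dse*, an epimerase that modifies chondroitin chains, stood at 708 CPM in macrophages, 238 CPM in myelin-DAM and between 75.5 and 83.5 CPM elsewhere. Without the macrophage profiles (22 profiles, 7844 genes), *Dse* (0.840) again ranked first, followed by *Cyp27a1* (0.791), a sterol hydroxylase. *Slamf7* (0.759), *Pirb* (0.758), *Myof* (0.757), *Gm47167* (0.740), *Zeb2* (0.737), *Grk5* (0.734), *Itsn1* (0.729) and *Gm13710* (0.724) followed. *Slamf7* and *Myof* were highest in myelin-DAM, at 119 and 166 CPM, and low in homeostatic microglia, at 0 and 4.05 CPM.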

How the data were processed

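The authors deposited gene tables of counts, whole-number UMI counts for each nucleus after Cell Ranger 6.1.2 and removal of ambient RNA with CellBender (mm10), with a cell type or subpopulation for each nucleus. Whether doublets were removed is not given in the sources used here for these tables. No column lacked a sample (0 columns). Genotypes were taken from the labels, with 2 libraries each.

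UMIs were summed per library and subpopulation, and profiles of fewer than 5 nuclei were left out. Levels (CPM) are counts scaled to the UMI total of the profile. Profiles were tested over all genes with edgeR 4.0.16 (filterByExpr, TMM, quasi-likelihood, R 4.3.3), fitting genotype means within 1 subpopulation, with a threshold of 0.05 on adjusted P. DAM were compared only in profiles of at least 20 nuclei, with both DAM subpopulations in 1 fit that shared the filter and the spread. The tests were tried on simulated data with 200 changed genes. DESeq2 1.42.0, DESeq2 size factors, no filter, other minimum nuclei, a replicate term, leaving out each library or subpopulation, and leaving out nuclei with macrophage markers were alternatives. Leaving each library out of pooled ratios and taking both sides from the same genotypes were added after seeing the data, as was the last with 6 markers, because any of the 14 markers occurred in 47.1 to 63.3% of microglia nuclei. Thinned shares are expectations. Intervals are exact at 95% and, like the limits from 3 counts, cover counting error only.

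Named genes were the 8 members, the other *Ms4a* rows by counts, the MS4A and TREM2 list (*Trem2*, *Tyrobp*, *Adam10*, *Adam17*, *Syk*, *Plcg2*, *Inpp5d*, *Cd33*, *Spi1*, *Apoe*, *Clu*, *Bin1*, *Picalm*, *Abi3*, *Fcer1g* and *Cd81*), marker lists, and the 10 genes most like the summed members with and without macrophages. The members and lists were chosen with earlier results of these data known.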

Additional observations from a re-analysis of the deposited data

Results flagged for a closer look

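Some *Ms4a* signal lay in nuclei outside the comparisons above. The table of all nuclei held 181 nuclei named microglia that were absent from the microglia table. Their summed *Ms4a* level was 136 CPM and their *Ms4a7* level 37.7 CPM, beside a sum of 2.27 ± 0.481 CPM (n = 8) in neurons. The 26 nuclei of the deposited cluster 43 stood at 609 CPM, against 68.8 CPM in the 24 nuclei of cluster 10 and 24.4 CPM in the 131 nuclei of cluster 39. Over the 181 nuclei, border macrophage markers summed to 1470 CPM, homeostatic markers to 1538 CPM, myelin markers to 5129 CPM and neuron markers to 1765.5 CPM. As a pool, these nuclei thus carried markers of several cell types. Whether single nuclei or single clusters mixed them was not tested. Groups of 2 libraries were too small to look for outlying libraries.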

How the results depend on the processing

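Leaving out nuclei with a macrophage marker moved the summed MyTE level from 102 CPM to 42.4 CPM (14 markers) or 46.2 CPM (6 markers), and the thinned MyTE share from 3.92% to 1.97% (14 markers). Thinning to 1000 UMIs gave shares of 78.4% in macrophages (30 nuclei left out), 33.4% in myelin-DAM (85), 8.18% in homeostatic microglia (337 of 982), 7.0% in MyTE nuclei (4) and 5.33% in amyloid-DAM (154). Of the 10 genes most like the sum, 6 were shared with Spearman's rho, and without macrophages 4 were shared with rho and 6 with a pseudocount of 50 CPM.

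Signs turned in 29 of 308 alternative fold changes, and only 11 of 24 member fold changes kept their sign in every alternative. In macrophages, *Ms4a6d* with 5xFAD went to -0.0048 (DESeq2 size factors) and -0.037 (DESeq2), *Ms4a6b* with Cnp loss to -0.029 and *Ms4a6c* with 5xFAD to 0.052 (no filter). *Ms4a6c* with Cnp loss went to -0.45 in microglia without DAM, and *Ms4a7* in myelin-DAM to 0.0014 (6 markers). None of these was past the threshold on either side.

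Leaving out 1 library at a time, the summed level ranged from 1645 to 1890 CPM in macrophages, 278 to 369 CPM in myelin-DAM, 76.2 to 125 CPM in amyloid-DAM, 85.6 to 112 CPM in MyTE nuclei and 95.4 to 107 CPM in homeostatic microglia. In macrophages with 5xFAD, log2 fold changes ranged from -0.73 to 0.27 for *Ms4a4a*, -0.87 to 0.019 for *Ms4a6b*, -0.49 to 0.54 for *Ms4a6c*, -0.43 to 2.80 for *Ms4a6d* and -0.47 to 0.023 for *Ms4a7*. With Cnp loss they ranged from -0.29 to 0.58 for *Ms4a6b* and -0.79 to 0.16 for *Ms4a6c*. In all microglia with 5xFAD, they ranged from -1.14 to 2.07 for *Ms4a7* and -0.18 to 0.13 for *Ms4a6d*. *Ms4a7* with Cnp loss stayed between 1.52 and 4.05. In DAM, the ranges were -0.67 to 0.21 for *Ms4a6d* and -0.82 to 0.42 for *Ms4a7* (amyloid-DAM, on 1 to 6 UMIs per library, not read), and -0.087 to 0.0076 for *Ms4a7* (myelin-DAM). Members called for the interaction in macrophages ranged from 0 to 1. MyTE comparisons could not be fitted without WT replicate 1.

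Counts over all genes moved with the settings. Counts of members could not move as far, because at most 8 members entered a comparison. Without WT replicate 1, macrophages gave 8 genes for Cnp loss (0 with all libraries), 22 for 5xFAD (2) and 8 for the interaction (0). In all microglia, Cnp loss gave 130 genes, between 22 without WT replicate 1 and 377 without the filter. For 5xFAD there were 32 genes, between 19 without 5xFAD replicate 2 and 264, and for the interaction 4, between 1 and 131. DESeq2 gave 240, 126 and 59. In homeostatic microglia, Cnp loss gave 5 genes (0 with the replicate block and without Cnp-/- replicate 1 or any of the 4 libraries with the transgenes, 27 without the filter), 5xFAD gave 3 (2 to 60) and the interaction 0 (0 to 12). In MyTE nuclei, Cnp loss gave 13 (0 without either Cnp-/- library, 27 without the filter), 5xFAD gave 4 and the interaction 3 (both 0 with DESeq2 and without Cnp-/- replicate 1, 7 and 6 without the filter).

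Replicate numbers did not pair the samples, with correlations of deviations from the genotype mean of -0.0637 to 0.0824. With the replicate block, *Ms4a7* with Cnp loss in all microglia was 2.12 (1.88 without), and no member was called. The macrophage comparisons rested on 10 to 57 nuclei per library.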
